A study of Rattus norvegicus with 10 samples.

Results

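The Toll-like receptors and the molecules that work directly with them were followed in cell-free RNA of rat milk whey, as 10 genes: the receptors Tlr2, Tlr3, Tlr4, Tlr5, Tlr6, Tlr7 and Tlr9, the co-receptors Cd14 and Ly96, and the adaptor Myd88. They were chosen by gene name among the non-control probes of a rat whole-genome array, which gave 11 probes of 41012, 2 of them for Cd14 and 1 for each other gene. The array carried 32311 gene names in all. The milk came from 3 dams of the inbred F344/N strain, each milked on d 2, d 9 and d 16 after birth, which had been obtained pregnant at an age of 14 weeks. Each day therefore had 3 arrays, and whey of dams 1 to 3 was measured on every day, 9 whey arrays in all. Serum was collected on d 21, and RNA of 3 dams was mixed and put on 1 array, so serum had no replicate. No genotype or treatment separated the groups, which differed in day and fluid. Before milking, every dam was separated from its litter and given oxytocin, and the milk was spun to remove fat, cells and casein and then filtered, as was the serum. In such fluids, fewer cells that shed a transcript and less of it shed per cell cannot be told apart.

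Toll-like receptors are sensors of the innate immune system that recognise conserved parts of microbes. Tlr4 detects bacterial lipopolysaccharide together with Ly96 (MD-2), which binds the lipid, and Cd14, which hands the lipid to that complex. Tlr2 pairs with Tlr6 to detect lipopeptides and Tlr5 detects flagellin, whereas Tlr3, Tlr7 and Tlr9 sit in endosomes and detect nucleic acids. Myd88 carries the signal of all of these receptors except Tlr3 towards NF-kB and inflammatory genes. In milk, soluble CD14 protein is a known component, and the newborn gut meets lipopolysaccharide and other microbial products from birth.

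The results turned on Cd14 and Ly96, so the 60-base probes that measured them are shown, as the array files give them and written 5′ to 3′, with no base marked. The positions are those of the array design on build rn4, all on the minus strand. The first Cd14 probe lies at chr18:29374990-29375049, the second at chr18:29375770-29375829, and the Ly96 probe at chr5:1705385-1705444. The rn4 exon annotation was not used here.
Cd14, first probe: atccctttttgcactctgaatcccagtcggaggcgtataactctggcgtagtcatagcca
Cd14, second probe: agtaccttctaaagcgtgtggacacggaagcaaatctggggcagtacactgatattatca
Ly96: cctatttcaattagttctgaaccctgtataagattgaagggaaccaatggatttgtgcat
The Ly96 probe was the poorest in G and C of these, at 36.7%, against 50% and 45% for the first and second Cd14 probes. Because probes bind with different strength, levels of different probes were not compared.

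Values below are log2 of the quantile-normalized array signal, from equal amounts of RNA per array. The paper reports that RNA was much more concentrated in the earliest whey than in the later whey. Levels per volume of whey were not measured on these arrays, so a rise or fall below is per amount of RNA. A spot was well above background when the scanner software marked it so, and a probe counted as detected in a group when at least 1 of its arrays carried that mark and its processed signal there exceeded 20. By that rule d 2 whey held 5 of the 10 genes, d 9 whey 8, d 16 whey 7 and serum 0. Of all 41012 probes the shares that met it were 28.7% on d 2, 39.0% on d 9, 32.3% on d 16 and 8.60% for the serum pool. Array brightness moved with these counts: the 75th percentile of processed signal lay between 12.5 and 28.0 on the d 2 arrays, between 21.2 and 83.2 on the d 9 arrays and between 21.5 and 40.6 on the d 16 arrays, and was 4.11 on the serum array. The part of brightness in the number of genes detected was not tested. The d 2 whey of dam 3 carried much of its group's count, which was 2 without it.

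On single arrays of d 2, 4, 6 and 6 of the 10 genes were well above background in dams 1, 2 and 3, on d 9 the numbers were 6, 7 and 9, and on d 16 they were 5, 6 and 7. Cd14, Tlr2 and Myd88 were well above background on all 9 whey arrays, Ly96, Tlr3 and Tlr6 on 8, Tlr4 and Tlr5 on 2 and Tlr9 on 1. The Tlr7 probe was never well above background.

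**Figure D1:**
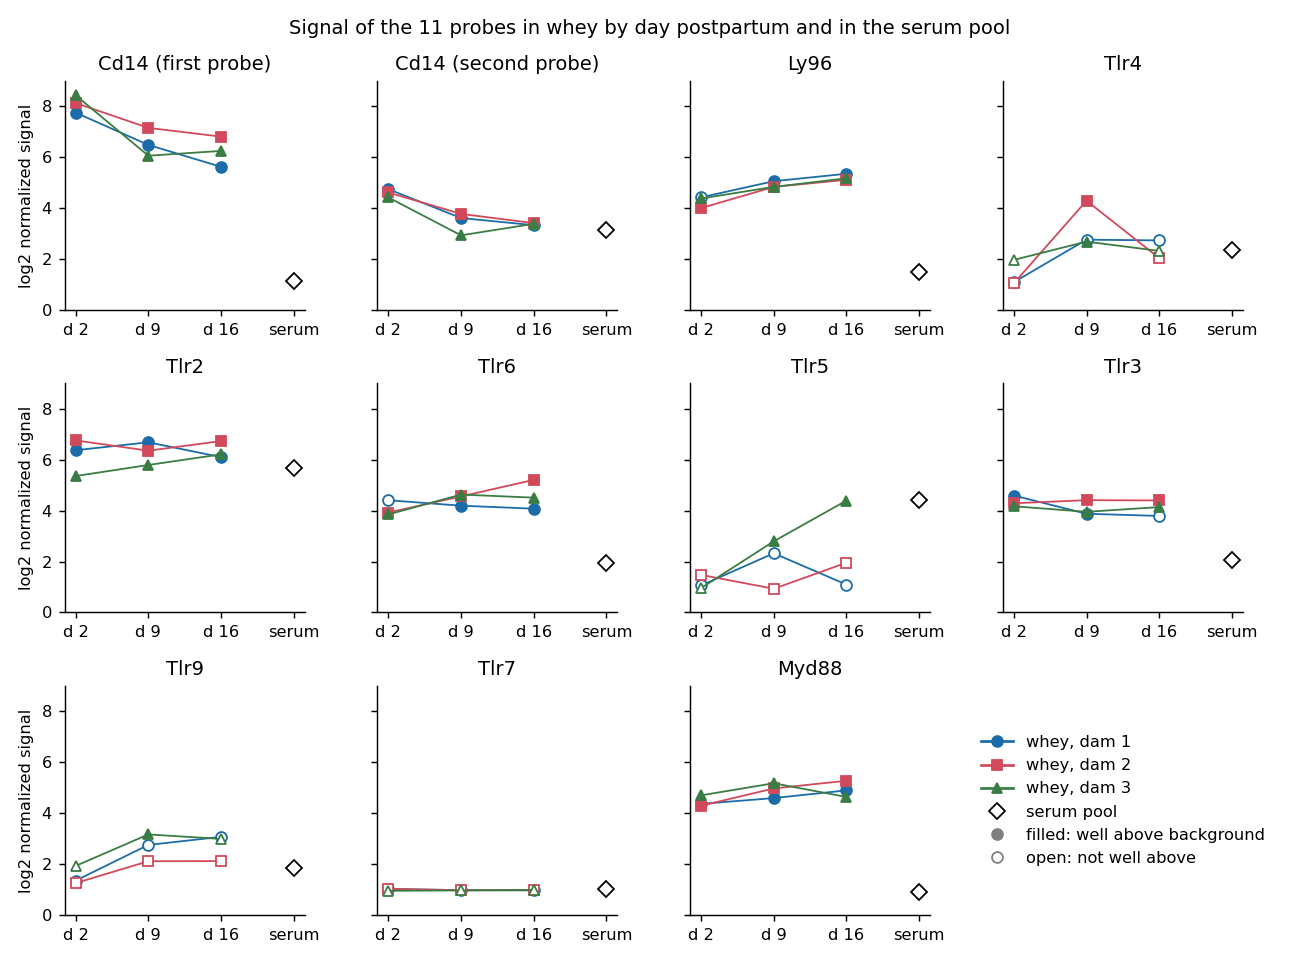
Log2 normalized signal of each of the 11 probes (y axis) on d 2, d 9 and d 16 whey and in the serum pool (x axis). Lines join the arrays of 1 dam, and filled points were well above background. Both Cd14 probes went down after d 2 and Ly96 went up in each dam, while Tlr7 stayed near 1 on every array.

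Cd14 was the member that fell. With its first probe, d 2 whey gave 7.76, 8.13 and 8.44 in dams 1, 2 and 3. The values on d 9 were 6.49, 7.16 and 6.06, and those on d 16 were 5.63, 6.82 and 6.25. All 3 d 2 values lay above every later value, and d 9 and d 16 overlapped. The decrease from d 2 was 2.91-fold by d 9 (log2 change -1.54, SE 0.38, adjusted p = 0.0294 in limma) and 3.68-fold by d 16 (log2 change -1.88, SE 0.38, adjusted p = 0.00952 in limma), each seen in 3 of 3 dams. From d 9 to d 16 the change of -0.34 did not pass the test (adjusted p = 0.659 in limma).

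The second Cd14 probe, which binds elsewhere in the same transcript, moved the same way. Its values were 4.75, 4.62 and 4.42 on d 2, then 3.62, 3.78 and 2.93 on d 9, and 3.33, 3.41 and 3.39 on d 16. Again no d 2 value overlapped a later one. The log2 change from d 2 was -1.15 by d 9 (SE 0.22, adjusted p = 0.0127 in limma) and -1.22 by d 16 (SE 0.22, adjusted p = 0.00630 in limma). It was well above background on all arrays of d 2 and d 9 and on 2 of 3 arrays of d 16.

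Ly96 rose in the same whey at equal RNA per array, and its change per volume of whey was not tested. Its values were 4.43, 4.01 and 4.38 on d 2, 5.06, 4.84 and 4.84 on d 9, and 5.35, 5.12 and 5.18 on d 16. The 3 days did not overlap, and d 16 was highest in each dam. The log2 change was 0.64 by d 9 (SE 0.15, adjusted p = 0.0271 in limma) and 0.94 by d 16 (SE 0.15, adjusted p = 0.00432 in limma), both higher in 3 of 3 dams. The step of 0.30 from d 9 to d 16 did not pass (adjusted p = 0.331 in limma). On d 2 the spot of dam 1 was not well above background.

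The pair was also set against each other within each array, with no normalization between arrays. The difference of log2 processed signal, Ly96 minus Cd14 with its first probe, was -3.29, -4.26 and -4.20 on d 2 in dams 1, 2 and 3. The Ly96 spot of dam 1 on d 2 was not well above background, so its -3.29 rests on an unmeasured level. The difference was -1.47, -2.45 and -1.35 on d 9, and -0.27, -1.75 and -1.10 on d 16. The mean difference thus went from -3.92 ± 0.54 on d 2 to -1.75 ± 0.60 on d 9 and -1.04 ± 0.74 on d 16 (SD, n = 3 dams), and it was higher on each later day in 3 of 3 dams. This pair was chosen after its values were seen, so it is given as a description with no test. It shows unequal change of both probes and not which of them moved.

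**Figure D2:**
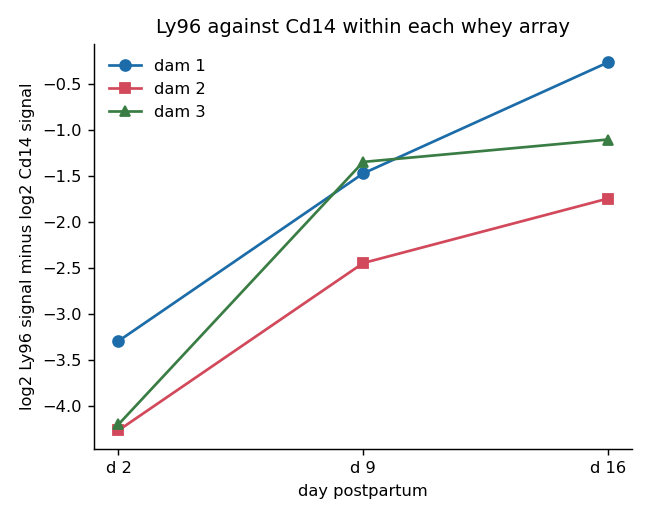
Log2 processed signal of Ly96 minus that of the first Cd14 probe (y axis) on each whey array by day postpartum (x axis), with 1 line for each dam. Every dam climbed from d 2, where it lay between -4.26 and -3.29 (the latter, dam 1, from a Ly96 spot not well above background), to d 16, where it lay between -1.75 and -0.27.

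Tlr4, the receptor that Ly96 and Cd14 serve, was close to background. Its values were 1.09, 1.04 and 1.97 on d 2, 2.76, 4.30 and 2.69 on d 9, and 2.73, 2.04 and 2.32 on d 16. Dam 2 on d 9 stood apart at 4.30. The probe was well above background on 2 of 3 arrays on d 9 and on none of d 2 or d 16. The d 9 values lay above all d 2 values (adjusted p = 0.0312 in limma), but the probe entered the test through d 9 whey of dam 2 alone, so that p is not independent of the filter. The mean over the d 2 arrays of the lowest signal well above background exceeded the d 9 mean, so no fold is given. With the dam as a block the same comparison gave adjusted p = 0.0591 in limma.

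Of the receptors at the cell surface, Tlr2, which binds bacterial lipopeptides, was measured on every whey array. It gave 6.38, 6.76 and 5.36 on d 2, 6.69, 6.36 and 5.80 on d 9, and 6.11, 6.74 and 6.21 on d 16. The days overlapped, and the log2 changes from d 2 were 0.11 by d 9 and 0.19 by d 16 (SE 0.39, adjusted p = 0.860 and 0.755 in limma).

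Tlr6, the partner of Tlr2, ranged from 3.85 to 4.41 on d 2, from 4.20 to 4.63 on d 9 and from 4.08 to 5.21 on d 16. Its log2 changes from d 2 were 0.40 and 0.54 (SE 0.30), with adjusted p = 0.374 and 0.215 in limma. Tlr5, the flagellin receptor, was well above background in dam 3 alone, at 2.80 on d 9 and 4.40 on d 16, and the other 7 whey arrays lay between 0.93 and 2.33. Neither change of Tlr5 from d 2 passed the test (adjusted p = 0.492 and 0.268 in limma).

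The endosomal receptors differed in detection. Tlr3, a receptor for double-stranded RNA, gave 4.60, 4.29 and 4.17 on d 2, 3.88, 4.41 and 3.96 on d 9, and 3.79, 4.40 and 4.14 on d 16. These days overlapped, with log2 changes of -0.27 and -0.24 from d 2 (SE 0.22, adjusted p = 0.405 and 0.437 in limma). Tlr7, a receptor for single-stranded RNA, lay between 0.95 and 1.03 on all whey arrays and was not tested.

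Tlr9, which detects unmethylated CpG DNA, was near background too. Its values were 1.35, 1.25 and 1.93 on d 2, 2.75, 2.11 and 3.16 on d 9, and 3.07, 2.12 and 2.99 on d 16. Only dam 3 on d 9 was well above background. All later values lay above the d 2 values, and the comparison of d 16 with d 2 had adjusted p = 0.0378 in limma. The probe entered the test through d 9 whey of dam 3 alone. Neither of those days had an array well above background, so no fold is given. The comparison of d 9 with d 2 gave adjusted p = 0.0586 in limma, and adjusted p = 0.0170 with the dam as a block.

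Myd88, the shared adaptor, was well above background on all 9 whey arrays. It gave 4.36, 4.29 and 4.70 on d 2, 4.59, 4.97 and 5.18 on d 9, and 4.90, 5.27 and 4.64 on d 16. The days overlapped, and the log2 changes from d 2 were 0.46 and 0.48 (SE 0.22, adjusted p = 0.182 and 0.141 in limma).

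By gene, 9 of the 10 members were tested, Tlr7 having failed the detection filter. Between d 9 and d 2, 2 passed higher (Ly96, and Tlr4 from a level not measured on d 2), 1 fell (Cd14) and 6 did not pass, where 17.7% of all 16849 tested probes passed, 11.2% higher and 6.46% lower. Between d 16 and d 2, 2 passed higher (Ly96, and Tlr9 with neither day measured), 1 fell (Cd14) and 6 did not pass, against 28.5% of all probes, 16.0% higher and 12.5% lower. Between d 16 and d 9, 0 passed in limma, 0 had an unadjusted p under 0.05, and 0 passed in the Tukey-Kramer test, against 1.42% of all probes, 0.558% higher and 0.861% lower. The 3 of 9 for d 16 was thus near the share of all probes. In these comparisons, in the same order, 4, 4 and 1 genes had no overlap between the days, where 38.8%, 48.2% and 29.4% of all probes did not overlap.

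The median log2 change of the 9 genes was 0.46 by d 9 and 0.54 by d 16, and the median of all tested probes was 0.11 and 0.04. Tlr4 and Tlr9 entered the test through d 9 arrays alone, where they were highest or nearly so. Tlr5 entered through d 16 whey of dam 3 alone, and Tlr6 through d 9 and d 16 arrays alone. The median of 0.54 by d 16 was the value of Tlr6 itself. The counts and medians are thus descriptions only.

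**Figure D3:**
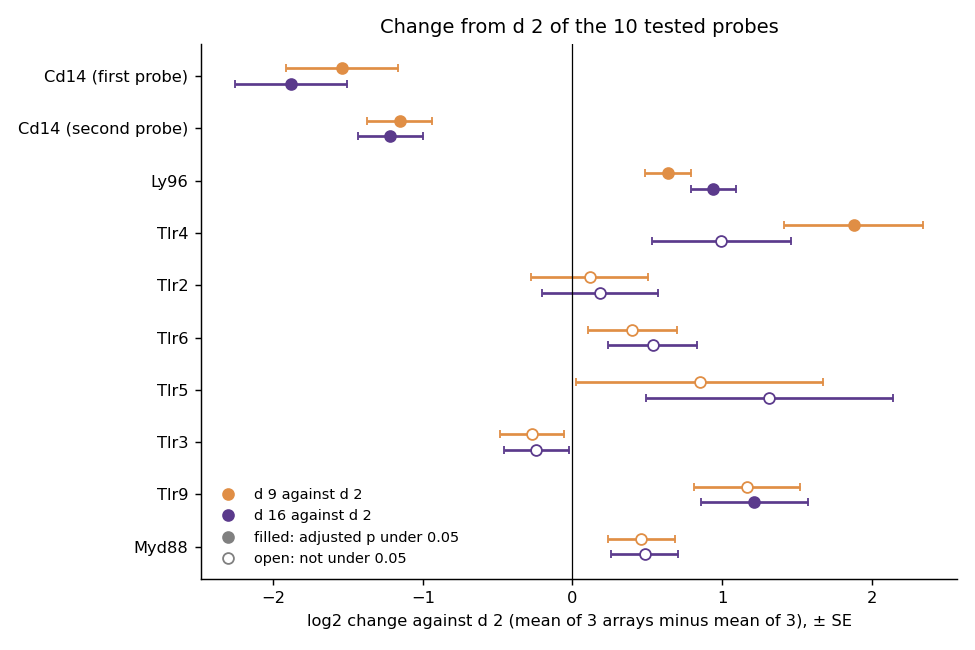
Log2 change against d 2 (x axis, mean of 3 arrays minus mean of 3, bars ± SE) of the 10 tested probes (y axis), d 9 and d 16 in separate colours. Filled points passed the test at an adjusted p under 0.05: both Cd14 probes and Ly96 did on both days, Tlr4 on d 9 and Tlr9 on d 16.

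The comparison of d 9 with d 2 was the less steady of the pair. The d 2 arrays of dams 1 and 2 lay on slide 1, that of dam 3 on slide 2 beside the 3 d 9 arrays, and the d 16 and serum arrays on slide 3, so slide 2 alone carried more than 1 whey day. Within slide 2 the log2 change from d 2 to d 9 was -1.87 and -0.98 for the first and second Cd14 probes, 0.53 for Ly96 and 1.28 for Tlr4, and none passed (adjusted p = 0.139, 0.170, 0.182 and 0.343 in limma). There the lone d 2 array was taken to vary like the d 9 and d 16 arrays. For d 16, slide and day cannot be told apart. Without d 2 whey of dam 2, and also without d 16 whey of dam 3, 0 members passed between d 9 and d 2, and without d 9 whey of dam 1 or dam 2 only 1 did. The second Cd14 probe passed that comparison without any single array.

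For d 16 against d 2, both Cd14 probes and Ly96 passed without any single array, and Tlr9 did not pass without d 2 whey of dam 1 or dam 2, d 9 whey of dam 1, or d 16 whey of dam 1 or dam 3 (adjusted p = 0.0903, 0.107, 0.0543, 0.108 and 0.118 in limma). In the Tukey-Kramer test the first Cd14 probe had adjusted p = 0.0555 for d 16 against d 2. Scaling the arrays on the spike-in spots brought the median change of all probes to 1.49 by d 9 and to 0.61 by d 16. With the spike-in spots the second Cd14 probe changed by 0.10 by d 9, which turned its direction, and the first by -0.11. Relative to the median of all probes they stood at -1.39 and -1.60, and Ly96 stood at 0.56. Spike-in scaling shifts all probes of an array alike. Scaling on the 75th percentile of each array therefore gave the same values relative to the median, and they are no check of the scaling. By d 16, with the spike-in spots, the first Cd14 probe, the second and Ly96 changed by -1.30, -0.66 and 1.58. None passed (adjusted p = 0.318, 0.659 and 0.202 in limma).

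In the serum pool no member was well above background. The lowest signal well above background on that array was 5.85, used here as an approximate serum limit. Such a limit is not exact for each probe. On the d 2 array of dam 1 it was 4.11, yet Ly96 at 4.43 was not well above background. Cd14 with its first probe read 1.13 in serum against a mean of 6.97 ± 0.97 in whey (SD, n = 9 arrays). That whey mean was 2.17-fold above the serum limit. It was raised by d 2, with a mean of 8.11, and dam 1 on d 16 lay under the limit at 5.63. Tlr2 read 5.66 in serum and 6.27 ± 0.47 in whey (SD, n = 9 arrays), a whey mean 1.33-fold above the same limit. Dam 3 lay under the limit on d 2 and d 9, at 5.36 and 5.80, so no direction is given for Tlr2. For the other 9 probes the whey mean lay under the serum limit or was not detected, and no fold is given. The readings themselves lay over 4-fold apart with whey above serum in 5 (Cd14, Myd88, Ly96, Tlr6 and Tlr3) and serum above whey in 1 (Tlr5), as they did for 27.2% and 15.8% of 21151 probes. Since the serum readings were not well above background, the readings give neither a fold nor a direction for these genes other than Cd14. For Cd14 the direction rests on the first probe and on the approximate limit. The second Cd14 probe read 3.15 in serum against a whey mean of 3.81, both under that limit, and gave no direction. Serum had 1 array, so there was no test.

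The rest of the pathway was read from a list of 70 other genes, of which 58 had a probe and 40 were tested. Between d 9 and d 2, 7 rose, 1 fell and 32 did not pass, which is 20% of those tested. Between d 16 and d 2, 11 rose, 0 fell and 29 did not pass, which is 27.5%. Both shares are near the 17.7% and 28.5% of all probes. The medians were 0.55 and 0.70 on the log2 scale. For d 16 against d 9, 0 passed in limma, with 4 at an unadjusted p under 0.05. With the dam as a block, 17 passed between d 16 and d 2, 15 of them higher and 2 lower, which is 42.5% of those tested, against 28.9% of all probes in the same fit.

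Of the 11 target genes tested, 2 rose by d 9 and 4 by d 16, which is 18.2% and 36.4%. Of all tested probes 11.2% and 16.0% rose. A further 8 target genes had a probe but were not detected. Il1rn, Ccl3, Il1b, Irf5 and Ly86 were not well above background on any d 2 array and entered the test through later days, when they were high, so their tests are not independent of the filter. Their folds below are approximate lower bounds. Il1rn, the antagonist of the interleukin-1 receptor, rose at least 2.88-fold by d 9 (adjusted p = 0.0354 in limma) and at least 10.1-fold by d 16 (adjusted p = 0.00615 in limma). By d 16, Ccl3, a chemokine for monocytes, rose at least 33.8-fold (adjusted p = 0.0437 in limma) and Il1b, the inflammatory cytokine interleukin-1 beta, at least 8.02-fold (adjusted p = 0.0138 in limma). Their d 16 values varied widely between dams, with SDs of 4.43 for Ccl3 and 2.29 for Il1b on the log2 scale.

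Other genes of the list that passed had further roles in the pathway. By d 9, Traf3, a ubiquitin ligase of the pathway, rose by a log2 change of 2.03 (SE 0.31, adjusted p = 0.00664 in limma), and Ccl5, a target gene and chemokine for T cells, by 1.94 (SE 0.35, adjusted p = 0.0111 in limma). Irf5, a transcription factor downstream of Myd88, rose at least 1.28-fold (adjusted p = 0.0108 in limma). Lbp, the plasma protein that delivers lipopolysaccharide to Cd14, was the gene of the list that fell by d 9, with a log2 change of -1.23 (SE 0.33, adjusted p = 0.0398 in limma). By d 16, Ly86, the MD-1 protein related to Ly96, rose at least 2.22-fold (adjusted p = 0.00419 in limma). Of the 4 other adaptors, Ticam1 and Tirap had no probe by name and Ticam2 and Sarm1 were not detected.

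**Figure D4:**
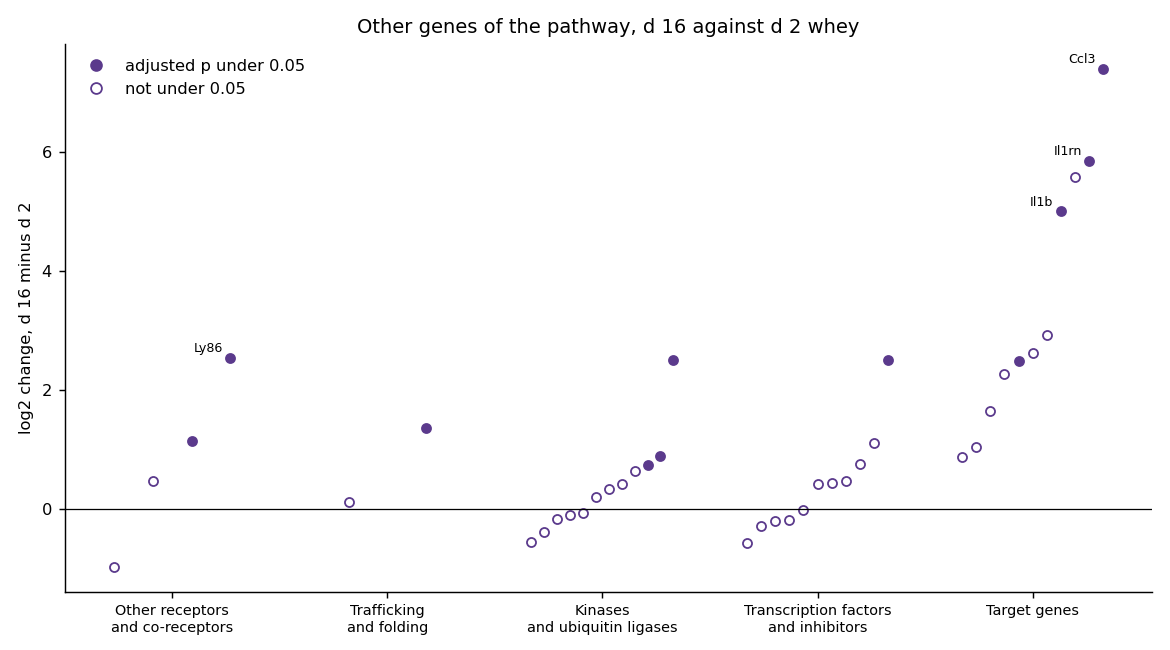
Log2 change from d 2 to d 16 whey (y axis) of the 40 tested pathway genes, grouped by role (x axis). Filled points are the 11 with an adjusted p under 0.05, all above 0, and the 4 largest are named.

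Among sensors outside the family, 19 genes were listed, 14 had a probe and 8 were tested. Between d 9 and d 2, 0 passed in limma, with 1 at an unadjusted p under 0.05. For d 16 against d 2, 1 passed: Nlrc4, a cytosolic sensor of flagellin and secretion systems, with a log2 change of -1.65 (adjusted p = 0.0280 in limma). That share of 12.5% was below the 28.5% of all probes.

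Markers of several cell types differed between the days. Beside the counts below, 11.2% of all tested probes rose and 6.46% fell by d 9, and 16.0% rose and 12.5% fell by d 16. Of 15 monocyte and macrophage markers, 9 were tested, and 7 rose by d 9 and 8 by d 16. Their summed linear signal ranged from 352 to 499 on the d 2 arrays, from 872 to 1929 on the d 9 arrays and from 3160 to 4032 on the d 16 arrays, and was 15721 in serum. Csf1r, Cd163, Msr1, Marco and Itgam, which define those cells, were on no whey array well above background. Of 11 neutrophil markers, 5 were tested, 2 rose by d 9 and 3 by d 16, with sums of 72.1 to 92.3, 91.7 to 248 and 177 to 512 on d 2, d 9 and d 16. Mpo, a neutrophil granule enzyme, was well above background on 3, 1 and 0 arrays of those days and was not tested. The neutrophil markers that rose were Fcgr3a and Ncf1 on both days and Np4 by d 16, while S100a8 and S100a9 did not pass. Elane, Ltf, Mmp8, Csf3r and Cxcr2 were on no whey array well above background. Of 5 T cell markers, 3 were tested, 0 rose by d 9 and 2 by d 16, with sums of 51.4 to 79.8, 71.5 to 114 and 136 to 183. Of 3 platelet markers with a probe, 1 was tested, Pf4, which fell by d 16 with a log2 change of -1.73 (adjusted p = 0.0134 in limma), and the platelet sums were 41.6 to 57.6, 27.9 to 53.1 and 12.9 to 25.6. Of the B cell and dendritic cell markers, 1 each was tested, Blnk, which did not pass, and Batf3, which rose by d 16 (log2 change 0.80, adjusted p = 0.0175 in limma). No erythroid marker was detected in whey. Ly96 moved in the direction of the monocyte and macrophage, neutrophil and T cell sums and against the platelet sum. Cd14, which monocytes also carry, moved against the former sums and in the direction of the platelet sum. The part of these cells in the results was not tested.

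Markers of the mammary epithelium were well above background in full: 11 of 11 on every whey array and 7 in serum. Their sum ranged from 674913 to 709152 on d 2, from 663438 to 879465 on d 9 and from 982974 to 1111220 on d 16, and was 7061 in serum. In whey the milk protein genes made up nearly all of it. Csn1s1 and Wap had d 2 means of 17.91 and 17.77, against 13.24 for Krt18. Quantile normalization largely sets values at the top of the range, and the SD of Wap on d 2 was 0.00027. The sum is thus no measure of epithelial RNA as a whole. By d 9, 3 of the 11 markers fell and 0 rose, and by d 16, 3 fell and 3 rose. The 3 that rose by d 16 were Csn2, Lalba and Wap, with log2 changes of 1.05, 1.02 and 0.70. Csn1s1, Csn3, Epcam, Cdh1 and Elf5 passed on neither day. Krt8, Krt18 and Krt19, keratins of the luminal cells, were the ones that fell on both days, by -1.31, -0.90 and -2.75 by d 9 and by -1.16, -0.72 and -2.29 by d 16 on the log2 scale. Whether these keratins and Cd14 fell together for a shared reason was not tested. No liver marker was well above background in whey.

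The genes whose course was most like that of Cd14 were sought over the 9 whey arrays among 6438 named genes well above background on all of them. The closest by Pearson's r were Ddx25, an RNA helicase (r = 0.975), Atp5g1, a subunit of ATP synthase (r = 0.973), and Chchd10, a mitochondrial protein (r = 0.958). The points share arrays and days, and the list was picked for its likeness, so these values are a description. Cd14 was the single member that was both well above background on all 9 arrays and passed a comparison.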

How the data were processed

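The deposited files hold spot intensity values on a linear scale. Per the file headers, the authors made them with Agilent Feature Extraction 9.5.3.1, whose processed signal is background-corrected, from 100 ng of RNA per array. Spot flags, also from the deposited files, mark whether a spot was well above background and whether it was an outlier. A separate normalized table was not used, because its column names matched no label. Of the 10 arrays, non-control spots without an outlier flag were put on the log2 scale, quantile-normalized over all arrays and then averaged by probe. They were tested with limma 3.58.1 in R 4.3.3 on the 9 whey arrays, with no block. The 16849 tested probes were well above background with a signal above 20 on at least 1 whey array, p-values were adjusted by Benjamini-Hochberg over them and the threshold was 0.05. In simulated data for d 16 against d 2, 200 of these probes were changed, with independent normal noise and no slide effect. There, 41% of changes of 1 and 73% of changes of 2 on the log2 scale were recovered. In the measured data 28.5% of these probes passed that comparison, so the recovery rates need not hold for them.

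The members and lists were chosen with earlier results of these data known. Every member probe is reported. For counts by gene, the probe well above background on most whey arrays stood for the gene, with ties going to the higher mean. In the pathway list, at most 4 genes with the largest changes in each direction are named per comparison, and likeness to Cd14 names the 3 highest correlations. Titles number the dams 1 to 3 on each day, so arrays are paired by animal, and correlations of same-numbered arrays' deviations ranged from -0.02 to 0.22. A lower bound of a fold sets the mean of the brighter group against the limit of well-above-background signal in the dimmer one. That limit is the lowest signal well above background on an array, and spots not well above background can exceed it, so the bounds are approximate. The number of arrays limits precision. In the main fit, the p-values rest on the spread among the arrays of each day, which mixes differences between dams with array noise. For d 2 that spread also mixes slides 1 and 2. The limma fit drew the spread of each probe towards that of all tested probes. It also took arrays of the same dam on different days as independent.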

Additional observations from a re-analysis of the deposited data

How the results depend on the processing

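The number of members that passed between d 9 and d 2 was 3, and it was 5 with spike-in scaling, 1 with normexp background correction, with no filter and with probes well above background on all 6 arrays, and 0 with the slide as a fixed block, within slide 2 and in the Tukey-Kramer test. Leaving out single arrays gave 0 to 4. Between d 16 and d 2 it was 3, and it was 0 with spike-in scaling and 1 with the all-arrays filter and in the Tukey-Kramer test, and 2 to 4 without single arrays. With the dam as a replicate block, the pathway count between d 16 and d 2 rose from 11 to 17. With spike-in scaling the pathway count between d 9 and d 2 was 22 in place of 8. Without single arrays it was 4 to 9, and 8 to 13 between d 16 and d 2. With normexp correction the pathway count between d 16 and d 9 was 2 in place of 0. Genes detected fell to 1, 4 and 2 on d 2, d 9 and d 16 with a minimum signal of 100, and to 2, 4 and 4 when every array of the day had to pass. Without single arrays they were 2 to 5, 7 to 8 and 6 to 7. The 5 members whose reading was over 4-fold higher in whey were 1 with 75th percentile scaling and 0 with normexp, and the 1 with the higher serum reading was 0 with spike-in scaling and with normexp. Without single whey arrays these were 5 and 1.

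Directions turned as follows, all but the first in changes that had not passed. With spike-in scaling, the second Cd14 probe changed by 0.10 between d 9 and d 2, Tlr3 by 1.07 between d 9 and d 2 and by 0.36 between d 16 and d 2, and between d 16 and d 9 Tlr9 by -0.62, Tlr6 by -0.62, Tlr2 by -0.76, Myd88 by -0.78, Tlr3 by -0.71 and Ly96 by -0.47. With normexp, Tlr3 changed by 0.0544 between d 9 and d 2 and by 0.0416 between d 16 and d 2, and between d 16 and d 9 Tlr6 changed by -0.0340 and Tlr3 by -0.0128. With 75th percentile scaling, the second Cd14 probe changed by 0.0269 between d 16 and d 9. Leaving out single arrays, Tlr2 ranged from -0.29 to 0.41 between d 9 and d 2 and from -0.22 to 0.48 between d 16 and d 2. Between d 16 and d 9 the ranges were -0.17 to 0.27 for Tlr2, -0.23 to 0.35 for Tlr9, -0.17 to 0.40 for Tlr6, -0.32 to 0.10 for the second Cd14 probe, -0.15 to 0.17 for Myd88, -0.49 to 1.16 for Tlr5 and -0.12 to 0.20 for Tlr3. The causes were not tested. Members near background are limited by signal over background, which was lowest on the serum array and, among whey arrays, on d 2 of dam 1.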
